A study of Mus musculus with 6 samples.

Results

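The MHC class II antigen presentation genes H2-Aa, H2-Ab1, H2-Eb1, Cd74, H2-DMa, H2-DMb1 and Ciita were followed in bone marrow-derived macrophages (BMDMs) that carried or lacked a myeloid deletion in Hnrnpd, the gene of the RNA-binding protein AUF1. These 7 genes, of 55254 gene symbols counted, were listed as 41 transcripts on 52 counted regions, and 22 of the transcripts held at least 1 read. They were chosen by their values in the same comparison of M-Δx3,4 with control libraries that is described here. Their fold changes are therefore a description, given with a standard error and with no test. RNA was sequenced from its 3′ end, so each read comes from near the end of a transcript. The libraries were amplified by PCR, so several reads can come from 1 molecule. There were 3 control and 3 M-Δx3,4 libraries. All BMDMs were of strain C57BL/6J, were grown from the marrow of young mice for 10 days in medium conditioned by L929 cells, and received 100 ng/ml LPS for 4 hrs. Both groups were homozygous for an hnRNPD allele with loxP sites around exons 3 and 4 (hnRNPDfl/fl), and only the M-Δx3,4 group carried LysCre, a Cre recombinase driven from the lysozyme M locus and active in the myeloid lineage. No untreated BMDMs were analysed here, so the values describe macrophages 4 hrs into a response to LPS. The labels do not say whether the 3 cultures of a group came from separate mice. Reads on Y-linked genes numbered 1, 32 and 3 in the control libraries, so the control cultures did not all come from 1 mouse. For the M-Δx3,4 cultures this is not known, and the spread between them may be technical.

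MHC class II molecules display peptides from endocytosed proteins to CD4+ T cells. An α chain and a β chain, in C57BL/6 mice those of H2-A (H2-Aa with H2-Ab1), assemble on the invariant chain CD74, and H2-DM (H2-DMa with H2-DMb1) later helps to exchange the last invariant chain fragment for antigenic peptides. C57BL/6 mice carry H2-Eb1, a second β chain, but make no Eα partner for it. CIITA, the class II transactivator, binds no DNA itself and acts through RFX, CREB and NF-Y factors seated on conserved X and Y boxes upstream of these genes. Macrophages make little class II at rest and more after interferon γ, and dendritic cells and B cells express it constitutively.

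RefSeq promoter sequences of build GRCm38.p6, reaching from 250 bases before a start site to 50 after it, are described for 4 of the 7 genes. These are H2-Aa, H2-Eb1, H2-DMa and H2-DMb1. The promoters of the remaining class II genes are not described here, and nothing is said about their letters. Both of the following stretches are shown because they hold the X-like and Y-like letters upstream of a chain gene, marked in capitals and read 5′ to 3′ on the strand of the gene. The first lies at chr17:34287861-34287915 on the minus strand and the second at chr17:34305765-34305818 on the plus strand, each upstream of every annotated transcript of its gene. The second also lies within Gm20513, a noncoding gene annotated on the opposite strand.
H2-Aa: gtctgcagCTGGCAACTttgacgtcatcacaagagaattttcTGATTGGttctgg
H2-Eb1: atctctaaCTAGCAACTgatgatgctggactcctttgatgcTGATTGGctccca
The letters searched were CTNGNAACT, a pattern drawn up by reading these promoters, and TGATTGG, which holds the CCAAT element of the Y box on its other strand. CTNGNAACT occurred on either strand in 4.1% of 32851 promoters and TGATTGG in 7.82%. The first followed by the second on the strand of the gene, with 20 to 45 bases between their first letters, occurred in 5 promoters (0.0152%), those of H2-Aa, H2-Eb1, H2-DMb1, BC051142 and 1700048F04Rik. In H2-Aa the pair began 84 and 50 bases before the RefSeq start site, in H2-Eb1 94 and 61, and in H2-DMb1 97 and 63. Unlike the printed stretches, the H2-DMb1 pair (within 34153086 to 34153140) lies past the annotated start of its gene at 34153072. Neither set of letters was found in the promoters of H2-DMa. Since the pattern was drawn up from class II promoters, their matches and the low share do not show that the letters are particular to them. A gene with no entry among the promoters searched could not appear here. A match describes the letters only, and binding was not measured.

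The libraries held 5852374 to 9008878 reads over all transcripts, or 2503125 to 3846215 with 1 transcript per gene. The first principal component of 4723 well-counted genes took 62.1% of the variance and set the control libraries apart from one another more than from the M-Δx3,4 libraries, with control replicate 3 at 54.9, control replicate 1 at -30.4 and the M-Δx3,4 libraries between -21.3 and -5.28. Reads on Y-linked genes numbered 1, 32 and 3 in control replicates 1, 2 and 3, and 32, 56 and 74 in the M-Δx3,4 libraries. They were nearly absent from control replicates 1 and 3 and present in every M-Δx3,4 library. Sex was therefore not balanced between the groups and is partly confounded with the contrast. The part of sex in the values below was not tested. The Hnrnpd transcript of the p37 isoform was counted at 177.8, 104.2 and 69.6 in control and at 52.8, 12.6 and 16.0 in M-Δx3,4, without overlap. The better-counted Hnrnpd transcript ENSMUST00000172361 was at 335.9, 185.9 and 104.4 in control and at 137.9, 124.3 and 160.5 in M-Δx3,4, and overlapped (log2 fold change -0.57, SE 0.41). Both are read at their 3′ ends, outside the deleted exons, so neither checks the deletion itself. Counts throughout are normalized counts, that is, reads divided by a library factor from the median of ratios.

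H2-Aa, the α chain of the H2-A molecule, stood at 143.0, 239.1 and 243.6 normalized counts in control and at 56.7, 45.6 and 46.6 in the M-Δx3,4 libraries. Every M-Δx3,4 library was below every control library, and control replicate 1 was the lowest control. The mean was 208.6 ± 56.9 (SD, n = 3) in control and 49.7 ± 6.14 (SD, n = 3) in M-Δx3,4, which is 23.8% of control. The log2 fold change, M-Δx3,4 against control, was -2.07 with a standard error of 0.37. It rested on 567 control reads and 166 M-Δx3,4 reads, the most of any class II gene here. Leaving out 1 library at a time gave -2.28 to -1.93.

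The gene lies on chromosome 17 at 34282744 to 34287823, minus strand (GRCm38). Its reads fell on 2 regions of transcript ENSMUST00000040655, both annotated as 3′ UTR. The larger covers the last exon, exon 5, and 249 bases past the annotated end (34282495 to 34283023). Its normalized counts were 88.3, 172.7 and 161.3 in control and 45, 35.0 and 31.3 in M-Δx3,4. The smaller is a stretch of 20 bases in exon 4 (34283155 to 34283174), with 54.6, 66.4 and 82.4 in control and 11.7, 10.7 and 15.3 in M-Δx3,4. Both regions were lower in every M-Δx3,4 library, with log2 ratios of the group means of -1.92 in exon 5 and -2.43 in exon 4. The exon 4 region held 61.8%, 38.5% and 51.1% as many reads as exon 5 in control and 26.1%, 30.6% and 48.8% in M-Δx3,4, so this ratio overlapped between the groups. A read that spans the exon 4 to exon 5 junction can be counted in both regions. With overlapping regions of the gene taken once, the log2 fold change was -1.97.

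H2-Ab1, the β chain that pairs with H2-Aa, was counted at 6.97, 19.4 and 24.4 in control and at 7.83, 10.7 and 9.93 in M-Δx3,4. The groups overlapped, because control replicate 1 lay below all M-Δx3,4 libraries while the other control libraries lay above them. The means were 16.9 ± 8.96 (SD, n = 3) and 9.48 ± 1.48 (SD, n = 3), and the log2 fold change was -0.83 (SE 0.58). The gene, on chromosome 17 at 34257689 to 34269419, was read from the 3′ UTR in exon 6 (34269109 to 34269668), with 46 control and 32 M-Δx3,4 reads. Without control replicate 3 the value was -0.47, and without control replicate 1 it was -1.19. A shorter region inside this one (34269395 to 34269643), counted for transcript ENSMUST00000174875, did not overlap between the groups. It was at 6.97, 14.3 and 13.9 in control and at 5.87, 4.86 and 3.82 in M-Δx3,4. Its log2 fold change was -1.27 (SE 0.67), from 32 control and 16 M-Δx3,4 reads.

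H2-Eb1, the β chain with no Eα partner in this strain, was counted at 19.8, 56.2 and 38.3 in control and at 22.5, 20.4 and 12.2 in M-Δx3,4. Control replicates 2 and 3 lay above all M-Δx3,4 libraries, and control replicate 1 lay among them. The means were 38.1 ± 18.2 (SD, n = 3) and 18.4 ± 5.42 (SD, n = 3), a log2 fold change of -1.06 (SE 0.48). The 105 control and 60 M-Δx3,4 reads came from the 3′ UTR in exon 6 of transcript ENSMUST00000235530, on chromosome 17 at 34315888 to 34316923. Without control replicate 2 the value was -0.66.

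Cd74, the invariant chain that occupies the peptide groove during assembly, was counted at 18.6, 51.1 and 29.0 in control and at 11.7, 16.5 and 5.35 in M-Δx3,4. No M-Δx3,4 library reached the lowest control library, although control replicate 1 at 18.6 and M-Δx3,4 replicate 2 at 16.5 were close. The means were 32.9 ± 16.6 (SD, n = 3) and 11.2 ± 5.6 (SD, n = 3), and the log2 fold change was -1.57 (SE 0.55). The value moved to -1.09 without control replicate 2 and to -1.96 without M-Δx3,4 replicate 2. The 91 control and 36 M-Δx3,4 reads lay on 3′ UTR segments in exons 9 and 10 of transcript ENSMUST00000167610. A single region covering both exons gave nearly the same picture, 16.3, 49.0 and 25.5 in control against 11.7, 14.6 and 5.35 in M-Δx3,4.

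**Figure D1:**
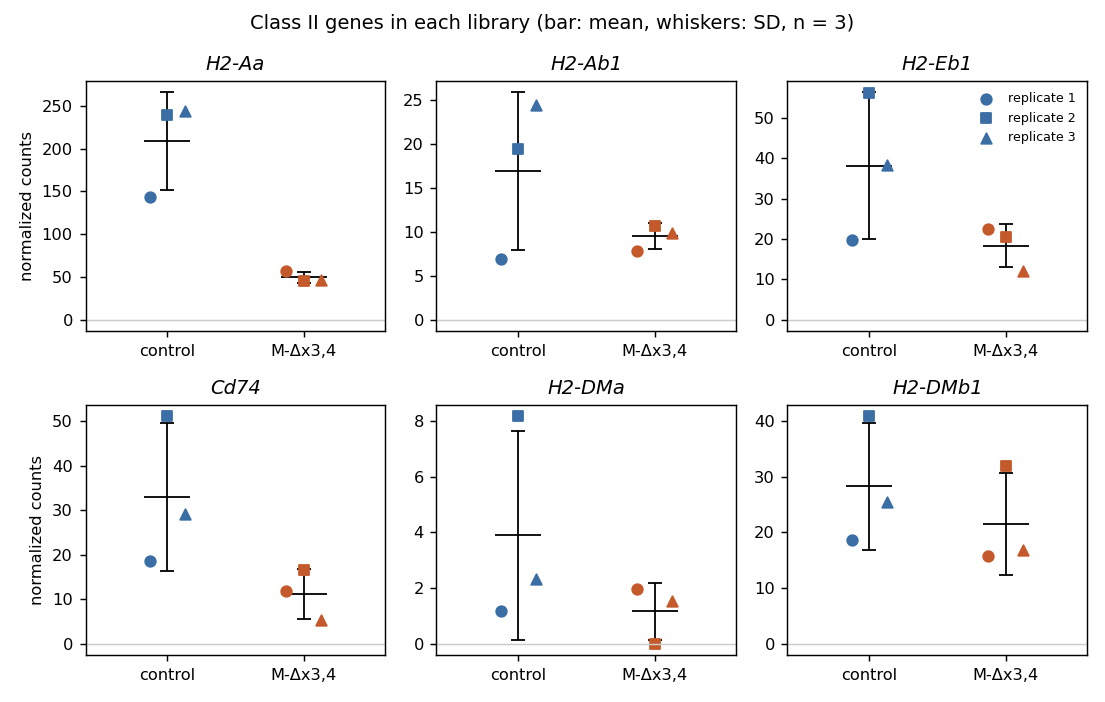
Normalized counts (vertical axes, each gene on its own scale) of 6 class II genes in the control and M-Δx3,4 libraries, with 1 symbol per library, a bar at the mean and whiskers of 1 SD (n = 3). The groups do not overlap for H2-Aa and Cd74, and control replicate 1 (blue circle) is the lowest control library in every panel.

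H2-DMb1, the β chain of the peptide exchange factor, was counted at 18.6, 40.9 and 25.5 in control and at 15.7, 32.0 and 16.8 in M-Δx3,4. The groups overlapped over most of their range, and replicate 2 was the highest library in both. The means were 28.3 ± 11.4 (SD, n = 3) and 21.5 ± 9.15 (SD, n = 3), with a log2 fold change of -0.41 (SE 0.48) from 78 control and 71 M-Δx3,4 reads. It was -0.04 without control replicate 2 and -0.80 without M-Δx3,4 replicate 2. The reads lay on exon 6 (chromosome 17, 34159940 to 34160479). H2-DMb2, a close paralog of H2-DMb1 and its neighbour, held 4 control and 6 M-Δx3,4 reads, and reads shared by both genes could have been assigned to either.

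H2-DMa, the partner of H2-DMb1, was barely read, with 1, 8 and 2 reads in control and 2, 0 and 2 in M-Δx3,4. The 8 reads of control replicate 2 alone carried the gene past the filter on low counts. Ciita, the transactivator, had 1 read on its best-counted transcript, in control replicate 3, and 1 read on a second transcript, in control replicate 2. Its 5 libraries without a read on the best-counted transcript allow up to 3 reads each, and 3 reads correspond to between 2.29 and 3.49 normalized counts depending on the library. No fold change can be given for Ciita, and no difference was detectable at this depth.

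Thus 2 of the 7 genes, H2-Aa and Cd74, had all M-Δx3,4 libraries below all control libraries on their best-counted transcript. Of the 11888 genes tested, 4.25% had this arrangement. All 6 class II genes that passed the filter had a log2 fold change below 0, as did 50.5% of all genes tested. The median of the 6 was -1.31, or -1.06 without H2-DMa, which passed the filter only through control replicate 2, and the median of all genes was -0.01. The genes were selected on these same values, and nothing is read from these counts or medians. The range among them was wide, from -2.07 for H2-Aa to -0.41 for H2-DMb1, and the standard errors of the neighbours H2-DMa, Cd74, H2-Eb1 and H2-Ab1 overlapped.

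**Figure D2:**
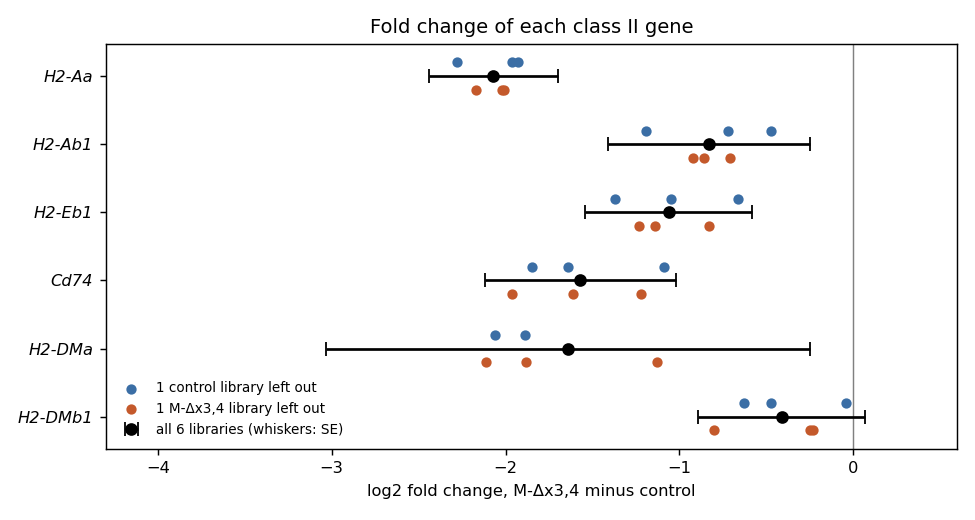
Log2 fold change of each class II gene, M-Δx3,4 minus control (horizontal axis), with all 6 libraries (black, whiskers of 1 SE), with 1 control library left out (blue) and with 1 M-Δx3,4 library left out (orange). All points lie below 0, with H2-DMb1 without control replicate 2 at -0.04, and H2-DMa has no value without control replicate 2, where it did not pass the filter.

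The reads of all 7 genes together came to 208.0, 414.8 and 364.3 normalized counts in control and to 116.4, 125.3 and 92.5 in M-Δx3,4. The groups did not overlap, the M-Δx3,4 mean was 33.8% of control, and the log2 ratio of the means was -1.56. Much of this was H2-Aa. Without it, the sums were 65.1, 175.7 and 120.7 in control and 59.7, 79.6 and 45.9 in M-Δx3,4, with a log2 ratio of -0.97. These sums overlapped, since control replicate 1 fell below M-Δx3,4 replicate 2.

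**Figure D3:**
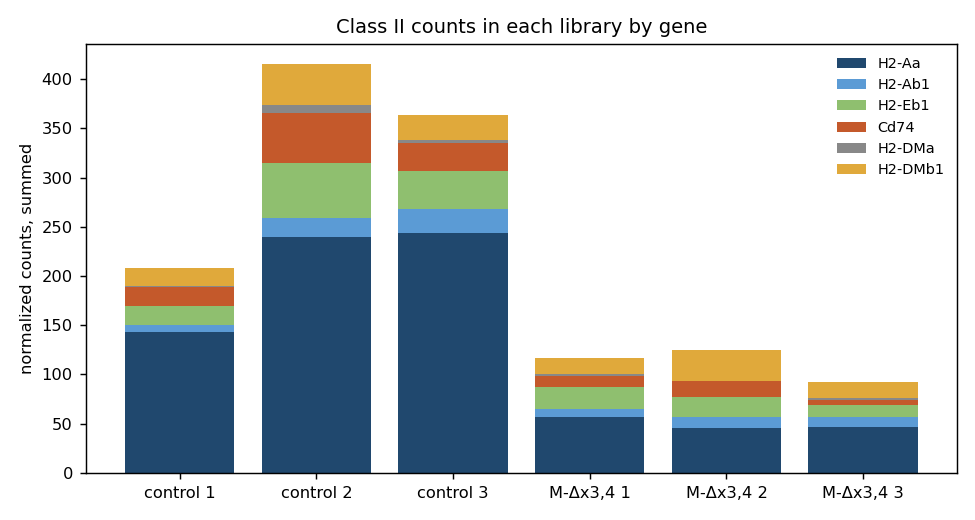
Summed normalized counts of the class II genes in each library (vertical axis), with each bar split by gene and Ciita, at 1 read on its best-counted transcript, not drawn. H2-Aa is the largest block in every library and shrinks the most between the control and M-Δx3,4 bars.

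The balance of reads between the chains is given as a description, since it uses the counts by which the genes were chosen. H2-Aa took 68.7%, 57.6% and 66.9% of the class II reads in control and 48.7%, 36.4% and 50.4% in M-Δx3,4, and these shares did not overlap. For each H2-Ab1 read there were 20.5, 12.3 and 10.0 H2-Aa reads in control and 7.25, 4.27 and 4.69 in M-Δx3,4. The α to β read ratio was lower in every M-Δx3,4 library, although control replicate 1 held only 6 H2-Ab1 reads. With the exon 5 region of H2-Aa alone, the ratio was 12.7, 8.89 and 6.62 in control and 5.75, 3.27 and 3.15 in M-Δx3,4. The other H2-Aa shares and ratios here use both regions, in which a junction read can be counted again. H2-Aa reads per H2-DMb1 read were 7.69, 5.85 and 9.55 in control and 3.62, 1.42 and 2.77 in M-Δx3,4, again without overlap. Cd74 reads per H2-DMb1 read were 1.0, 1.25 and 1.14 against 0.75, 0.515 and 0.318. These ratios set H2-Aa and Cd74 reads over those of H2-DMb1, the class II gene with the fold change nearest 0. H2-Aa reads per Cd74 read were 7.69, 4.68 and 8.4 in control and 4.83, 2.76 and 8.71 in M-Δx3,4, and overlapped. All are ratios of read numbers within a library and do not depend on the library factor. That does not remove the choice of the genes, and nothing further is read from them.

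Control replicate 1 was the lowest control library for each of the 6 genes other than Ciita. Over the 6 libraries, H2-Eb1 and Cd74 had a Pearson r of 0.949 in log2(normalized count + 1), and 0.909 after the group means were taken off. For H2-Aa and H2-Ab1 the values were 0.673 and 0.813, and for H2-Aa and H2-DMb1 they were 0.464 and 0.353. Each r is over 6 libraries that share their library factors, and is given as a description. Of 4722 other genes with a mean of at least 50 normalized counts, those whose levels followed the mean class II profile most closely were Zc3hc1 (r = 0.982), Xbp1 (0.982), Gm7730 (0.981), Tmem222 (0.977) and Nucb1 (0.975). Xbp1, a transcription factor of the unfolded protein response, was at 93, 144.1 and 150.8 in control and at 92.9, 93.2 and 81.0 in M-Δx3,4. Its log2 fold change was -0.54 (SE 0.35), and those of the other 4 genes lay between -0.52 and -0.28.

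The transcription factors that act on class II promoters had values on both sides of 0. Of the 12 genes of this list, 0 passed the threshold in either direction, where passing took a log2 fold change of 1 or more in size and, by the quasi-likelihood test of edgeR, a p under 0.05 before adjustment. Over all 11888 genes, 1.96% passed it as lower and 1.10% as higher. The list had a median log2 fold change of 0.21, and 4 of 12 values were below 0. Rfx5, the DNA-binding subunit of RFX, was at 68.6, 123.6 and 98.6 in control and at 145.7, 121.4 and 130.7 in M-Δx3,4, a log2 fold change of 0.45 (SE 0.36). Rfxap, its partner subunit, was higher in every M-Δx3,4 library, at 12.7, 14.6 and 13.8 against 10.5, 11.2 and 2.32, with a log2 fold change of 0.76 (SE 0.63) and an adjusted p of 0.984 by edgeR. Irf8, a myeloid interferon regulatory factor, had a log2 fold change of -0.35 (SE 0.34).

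Spi1, which encodes the myeloid and B cell factor PU.1, was the only pathway gene with an unadjusted p under 0.05. It was counted at 896.1, 1940.2 and 4655.7 in control and at 1511.3, 1024.4 and 1211.3 in M-Δx3,4. Control replicate 3 stood far above all other libraries and control replicate 1 below all of them, so the groups overlapped. The log2 fold change of -1.0 (SE 0.46) fell just short of the threshold, with an edgeR p of 0.045 and a Benjamini-Hochberg adjusted p of 0.984.

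Interferon γ signalling genes, which lead from the receptor to CIITA, had 0 of 6 past the threshold and a median log2 fold change of -0.08. Irf1, an interferon-induced factor that takes part in Ciita induction, was at 2491.9, 3015.0 and 3002.5 in control and at 1888.8, 2322.7 and 2113.0 in M-Δx3,4. The Irf1 groups did not overlap, but its log2 fold change was -0.43 (SE 0.28), with an adjusted p of 0.984 by edgeR. The 12 interferon γ-inducible genes, of which 11 were tested, centred on -0.02 and ranged from -0.14 to 0.51, with 0 past the threshold.

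The enzymes that degrade antigen and the invariant chain also had 0 of 8 past the threshold, with a median of -0.23 and values from -0.43 to 0.26. Ctss, the cathepsin that trims the invariant chain, was at 2844.1, 2296.8 and 1705.4 in control and at 2359.3, 2349.9 and 2488.2 in M-Δx3,4, a log2 fold change of 0.07 (SE 0.30). Ifi30, the lysosomal thiol reductase, had a value of -0.31 (SE 0.42). The ubiquitin ligases that remove class II from the surface, Marchf1 and Marchf8, had values of 0.44 (SE 0.53) and 0.17 (SE 0.34). Of the 6 costimulation genes, 4 were tested and 0 passed, with a median of 0.41. Cd86, a ligand for CD28, had a value of 0.63 (SE 0.41) and Cd40 one of -0.48 (SE 0.31). The remaining class II chains were hardly read, with H2-Ea and H2-Eb2 at 0, H2-Oa at 1 and 2 reads in control and M-Δx3,4, and H2-Ob at 6 reads, all in control replicate 2, and 1 read.

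Class I genes served as a second presentation pathway. Of 13 class I genes 0 passed the threshold, with a median log2 fold change of -0.04 and a range of -0.70 to 0.52. B2m, the light chain of class I, was at 6384.4, 6580.7 and 6747.5 in control and at 7318.6, 4861.0 and 5373.9 in M-Δx3,4, a value of -0.17 (SE 0.28). Nlrc5, the class I counterpart of CIITA, was at 130.2, 72.5 and 121.8 in control and at 118.4, 88.4 and 109.3 in M-Δx3,4, a value of -0.04 (SE 0.37). The class I values were not tested against those of class II, since the class II genes were chosen by this contrast. No transcript of any gene reached an adjusted p under 0.05 in edgeR, where the smallest of 32475 was 0.824 and 1340 had an unadjusted p under 0.05, and DESeq2 gave 4.

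**Figure D4:**
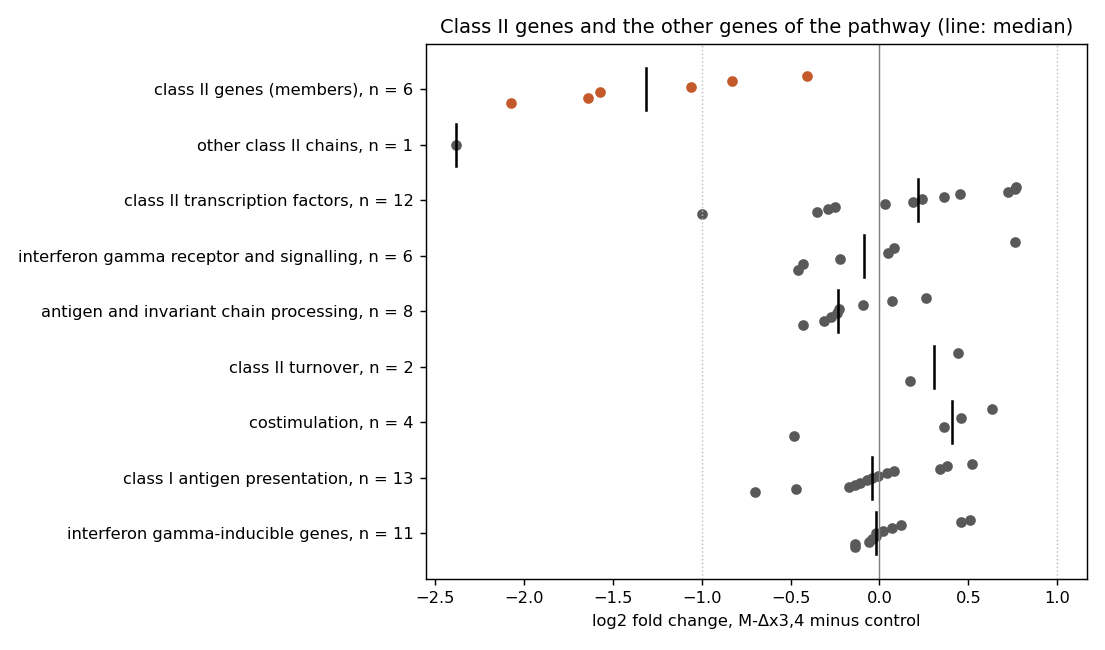
Log2 fold change, M-Δx3,4 minus control (horizontal axis), of the class II genes (orange), of the other genes of the pathway and of the class I and interferon γ-inducible genes (grey), 1 point per tested gene, with a line at each median and dotted lines at -1 and 1. The class II genes, chosen by these values, have a median of -1.31 (-1.06 without H2-DMa), from which nothing is read, the transcription factors one of 0.21 and the class I genes one of -0.04.

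BMDM cultures can hold other cells that express class II, so marker genes of those cells were read in the same libraries. Macrophage markers were well counted in all 6 libraries, with sums of 6451.6 to 7034.1 in control and 5413.5 to 7072.1 in M-Δx3,4, and 0 of 8 passed the threshold. Csf1r, the receptor of the growth factor in L929 medium, had a log2 fold change of -0.43 (SE 0.36). Lyz2, the lysozyme M gene from which the Cre is driven, was lower in every M-Δx3,4 library, at 1342.0, 881.7 and 968.2 against 1992.1, 1788.0 and 2200.8. Its log2 fold change was -0.91 (SE 0.30), with an edgeR p of 0.0089 and an adjusted p of 0.984.

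Dendritic cell markers were near 0. Of 10 genes, Clec9a and Cd209a had no read, Flt3 had 1 read over all libraries, and Zbtb46 had 6 reads in control and 5 in M-Δx3,4. Their sum was 12.8 to 40.6 normalized counts in control and 11.7 to 26.7 in M-Δx3,4, and the groups overlapped. Neutrophil and granulocyte precursor markers, with 0 past the threshold of 4 tested among 8, summed to 379.0 to 688.1 in control and 472.3 to 709.8 in M-Δx3,4.

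B cell markers, in sum, were lower in the same libraries as the class II genes. Their sum was 308.0 to 379.4 in control and 153.4 to 170.2 in M-Δx3,4, without overlap. Igkc, the constant region of the immunoglobulin κ light chain, was the 1 marker past the threshold of 6 tested among 11, at 223.2, 228.9 and 251.8 in control and at 83.1, 59.2 and 95.5 in M-Δx3,4. Its log2 fold change was -1.56 (SE 0.34), with an edgeR p of 0.00039 and an adjusted p of 0.984. Without Igkc, a step chosen after its values were seen, the sum was 84.8 to 127.6 in control and 63.4 to 94.2 in M-Δx3,4, and overlapped. Of the better-counted B cell markers, Ighm was lower in every M-Δx3,4 library, at 44.0, 43.7 and 28.3 against 48.8, 62.3 and 76.6 (log2 fold change -0.70, SE 0.40), and Cd79b had 60 control and 94 M-Δx3,4 reads (0.39, SE 0.46). Several other defining genes were near 0, with Cd79a at 9 and 5 reads in control and M-Δx3,4, Pax5 at 1 and 3, Ebf1 at 1 and 0, and Ms4a1 at 6 and 0. T and NK cell markers summed to 45.2 to 55.8 in control and 25.4 to 42.7 in M-Δx3,4, without overlap. Of these 9 genes 2 were tested, Cd3d and Cd4, with 0 past the threshold. Each of them overlapped between the groups, with log2 fold changes of -0.29 (SE 0.59) and -0.55 (SE 0.47). Cd3e, Nkg7, Gzma, Klrb1c and Ncr1 were at 0. The part of these cells in the class II values was not tested, and in RNA from whole cultures fewer cells of a type and less RNA per cell cannot be told apart.

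**Figure D5:**
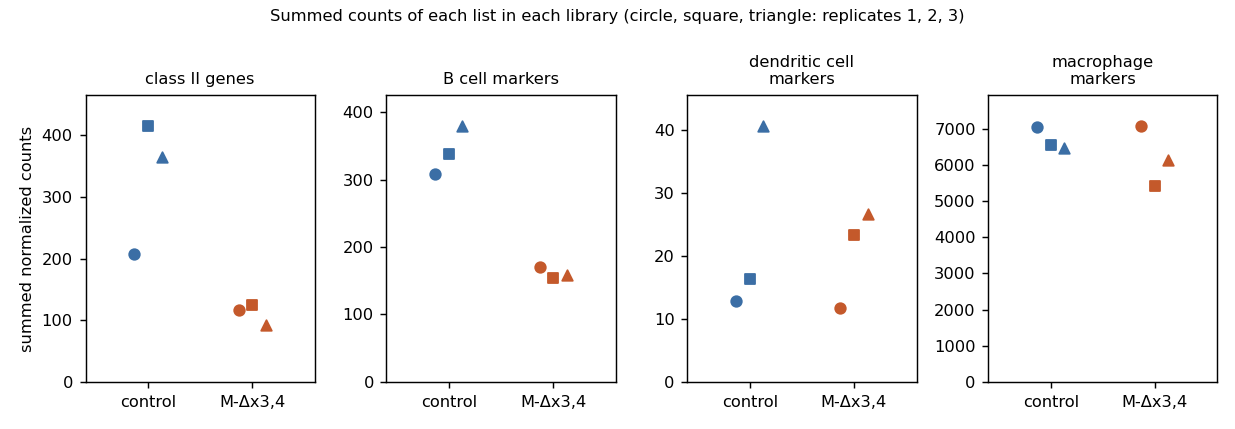
Summed normalized counts (vertical axes from 0, each on its own scale) of the class II genes and of 3 marker lists in each library. The class II and B cell sums are lower in all 3 M-Δx3,4 libraries, and the dendritic cell and macrophage sums overlap between the groups.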

How the data were processed

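BMDMs from 3 control and 3 M-Δx3,4 cultures were analysed. The authors prepared QuantSeq 3′ FWD libraries, sequenced them on an Ion Proton, mapped the reads to mm10 with TopHat2 2.1.1 and then Bowtie2, and counted them with metaseqR2 on 3′ UTR regions of Ensembl transcripts, each library apart. The deposited values used are these raw read counts per region, over 177303 regions of 142567 transcripts. A second table of the authors' own comparison, with p-values, fold changes and 24 columns of per-library values, was not used.

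Counts were summed per transcript, the best-counted transcript on average stood for its gene, and library factors were medians of ratios (RLE). Transcripts above the median normalized count of 4.89 in at least 1 library were fitted by group with edgeR 4.0.16 (R 4.3.3; glmQLFit, glmQLFTest), with Benjamini-Hochberg adjustment over 32475 transcripts. The study combined several tests, and 1 was used here. A read crossing a junction can be counted on both regions, and transcripts of a gene that share an end hold the same reads, so calls of transcripts are not independent. P-values measure the spread between these cultures. The fit was tested on simulated data.

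The genes and lists were chosen with earlier results of these data known. List genes are read from the best-counted of their tested transcripts, and 3 (Marchf1, Marchf8, H2-Ea) were matched by newer symbols. Named are all class II genes, list genes with an unadjusted p under 0.05, preset regulators and markers (some are not reported here), the 5 genes most correlated with the mean standardized profile of H2-Aa, H2-Ab1, H2-Eb1 and Cd74, and genes set beside these as examples, chosen after their values were seen. Alternatives were TMM or library totals, DESeq2 1.42.0, other filters, 1 transcript per gene, overlapping regions taken once, a replicate block, and leaving out each library.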

Additional observations from a re-analysis of the deposited data

How the results depend on the processing

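The fold changes of H2-Aa, H2-Ab1, H2-Eb1, Cd74, H2-DMa and H2-DMb1 kept their sign under every alternative that gave a value. Each moved by less than 1 SD between replicates. The summed log2 ratio did the same under the 10 alternatives for which it was computed. It was not computed for DESeq2, no filter, filterByExpr or the replicate block. All alternatives reuse the libraries by which the genes were chosen, so this stability describes the processing only and is no test of the genes. The values ranged from -2.28 to -1.93 for H2-Aa, -1.19 to -0.47 for H2-Ab1, -1.37 to -0.66 for H2-Eb1, -1.96 to -1.09 for Cd74, -2.11 to -1.13 for H2-DMa, -0.80 to -0.04 for H2-DMb1 and -1.81 to -1.36 for the sum. H2-DMa had no value under filterByExpr or without control replicate 2, where it was filtered out. The number of transcripts past the threshold, 1071 with 62.1% lower, was 704 with DESeq2, 1715 without a filter, 466 with filterByExpr, 365 with 1 transcript per gene (of 11180 tested) and 685 with the replicate block. Leaving out 1 library gave 743 to 3290, the latter without control replicate 1, where 40.6% were lower. Pathway genes past the threshold numbered 0, but 1 (Spi1) with 1 transcript per gene, with overlapping regions taken once and without control replicate 2, and 3 (Creb1 and Marchf1 higher, Spi1 lower) without control replicate 1. Leaving out other libraries gave 0. Marker genes numbered 1, but 2 without a filter (Igkc and Ms4a1) and, over the libraries left out, 1 to 2, with Lyz2 added without M-Δx3,4 replicate 1. Class I and interferon γ genes numbered 0 to 1 over the libraries left out, with Irgm1 higher without control replicate 1. The causes were not tested. Whether the replicate numbers pair the samples is not known. Same-numbered control and M-Δx3,4 libraries deviated from their group means with r of -0.213, 0.537 and -0.309. With 3 libraries per group these values cannot decide it. With the replicate block H2-Aa was at -2.04 and Cd74 at -1.56. Depth limits H2-DMa and Ciita, with 15 and 1 reads on their best-counted transcripts.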
